A study of Rattus norvegicus with 311 samples.

Results

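Primary hepatocytes of male Sprague Dawley rats were kept for 7 days either together with non-parenchymal liver cells (co-culture) or alone (monoculture), and the wells of both cultures sampled on day 7 were compared over vehicle and every treatment at once. Of the 311 libraries of the study, 103 were of day 7, and 102 of these held at least 500000 counts and entered the comparison, 51 of co-culture wells and 51 of monoculture wells. The library left out was a monoculture well with 30 µM ketoconazole on plate 1, which had 412414 counts, and the nearest library above the minimum was a co-culture well with 10 µM ketoconazole on plate 1, which had 1355914. Hepatocytes and non-parenchymal cells came from a commercial supplier, freshly isolated, and were grown as flat (2D) cultures on collagen-coated multiwell plates. In the last 24 h before lysis a well received gemfibrozil, a fibrate that lowers blood lipids, at 10, 100 or 1000 µM, or GW7647, an agonist of the nuclear receptor PPAR-alpha, at 0.01, 0.1 or 1 µM. Other wells received ketoconazole, an azole antifungal, at 1, 10 or 30 µM, phenobarbital, a barbiturate and classical inducer of cytochromes P450, at 0.1, 1 or 10 mM, or vehicle. These 13 compound-doses were run on 4 plates, numbered 1, 3, 5 and 7 in the library names, and gave 50 pairs of a co-culture and a monoculture well with the same compound-dose on the same plate. Plate 1 had no co-culture library of day 7 with 1000 µM gemfibrozil. Replicates are called biological in the labels, which do not say whether plates hold separate animals or lots of cells, so p-values measure the spread between these wells.

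Non-parenchymal cells of the liver include the sinusoidal endothelial cells that line its capillaries, the Kupffer cells, which are its resident macrophages, and the stellate cells, which store vitamin A and turn into collagen-producing myofibroblasts in culture. Endothelial cells send hepatocytes signals such as R-spondins and bone morphogenetic proteins, Kupffer cells take up debris and release cytokines, and stellate cells lay down matrix. Hepatocytes alone on a flat surface are known to lose much of their specialised metabolism over days. A preparation of hepatocytes usually carries some non-parenchymal cells with it, and the labels do not give the purity of either preparation.

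RNA was measured with TempO-Seq, in which pairs of detector oligonucleotides are ligated on their transcripts and counted, so that values exist for targeted genes alone. Levels are given as CPM, counts per 1000000 of the TMM-scaled library, and differences as log2 fold changes of co-culture over monoculture, where 1 is a doubling. Libraries held 1355914 to 9413868 counts in co-culture (median 5495647) and 2192472 to 9443843 in monoculture (median 5724255). Of 22253 probes, 13660 passed the filter on low counts. A probe was called when its adjusted p in edgeR's quasi-likelihood test, with compound-dose and plate as blocks, was under 0.05.

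In co-culture wells of day 7, 14 of 27 endothelial, 7 of 25 macrophage and 12 of 27 mesenchymal genes were called higher than in monoculture wells and none lower, and no marker list of hepatocytes had a called member. In all, 399 probes were higher in co-culture, 2.92% of those tested, with a median log2 fold change of 0.77, and 7 were lower, 0.0512%, with a median of -0.41. Over all probes the median was -0.02. The excess was uneven between plates. Of the 399 higher probes, 399 pointed the same way on plate 3 and 399 on plate 7, against 317 on plate 5 and 108 on plate 1, and 61 did so on every plate. Plates 3 and 7 each carried the result: without plate 3 the count of called probes was 2, without plate 7 it was 4, and without plate 1 it was 2015, of which 1203 were higher and 812 lower. The number of lower probes also depended on the fit, with 110 when matched wells were the block and 155 with the number of probes detected as a covariate. When counts were summed per plate and culture, which leaves 4 values a culture, 0 probes were called by edgeR's quasi-likelihood test and 820 had an unadjusted p under 0.05. DESeq2 on the wells called 642.

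**Figure D1:**
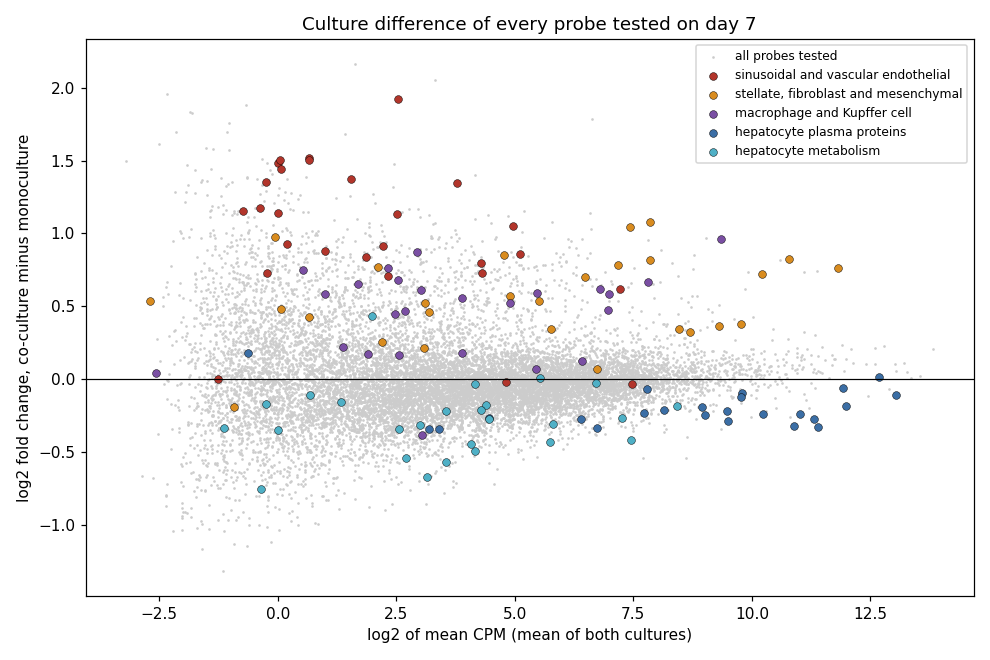
Log2 fold change of co-culture over monoculture (vertical axis) against the log2 of the mean CPM of both cultures (horizontal axis) for each probe tested on day 7, with the genes of 5 marker lists in colour. Endothelial genes lie mostly above 0 with a median of 1.05, mesenchymal and macrophage genes have medians of 0.53 and 0.55, and genes of hepatocyte plasma proteins and metabolism lie mostly just below 0.

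Endothelial genes had the highest median among the lists. Of 27 endothelial genes tested, 14 rose in co-culture and 0 fell, with a median log2 fold change of 1.05. Lyve1, a hyaluronan receptor of sinusoidal endothelium, ranged over 0 to 44.1 CPM in co-culture wells (median 14.9) and over 0 to 65.0 CPM in monoculture wells (median 6.00). The cultures overlapped almost completely in range, yet the co-culture well was the higher of the pair in 42 of 50 pairs, and the log2 fold change was 1.35 ± 0.27 (SE, edgeR adjusted p = 0.00057). Stab1, a scavenger receptor of the same cells, rose by 1.14 ± 0.23 (adjusted p = 0.000837, higher in 38 of 50 pairs). Eng, the TGF-beta co-receptor endoglin, had a median of 28.2 CPM in co-culture and 13.3 CPM in monoculture wells and rose by 0.86 ± 0.14 (adjusted p = 1.65e-05, 43 of 50 pairs). Tek, the receptor of angiopoietins, spanned 2.91 to 80.3 CPM in co-culture (median 29.9) and 1.10 to 78.4 CPM in monoculture (median 9.46), and rose by 1.05 ± 0.19 (adjusted p = 0.000114). Scarcer members rose too, among them Cdh5, the cadherin of endothelial junctions, at 1.62 CPM in co-culture and 0.925 CPM in monoculture (medians), with a log2 fold change of 1.92 ± 0.35, and Pecam1, a junction protein of endothelial cells, at 1.60 CPM in co-culture and 0.767 CPM in monoculture, with 1.37 ± 0.37. Kdr, the main VEGF receptor, had 1.14 ± 0.39 and did not pass (adjusted p = 0.101). Stab2, a defining gene of sinusoidal endothelium, had 18 counts over all 102 wells and was not tested. Since wells are bulk samples, more cells of a type and more RNA per cell cannot be told apart in any of these values.

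The endothelial excess differed between plates. Fitted within a plate, Lyve1 had log2 fold changes of 2.42 on plate 3, 2.45 on plate 7 and 0.76 on plate 5, all past an adjusted p of 0.05, and -0.80 on plate 1, which did not pass. On plate 7 its median was 16.9 CPM in co-culture and 3.06 CPM in monoculture wells, and on plate 1 it was 8.01 CPM in co-culture and 13.01 CPM in monoculture wells. The median over the list was 2.37 on plate 7, where 17 of 20 genes tested rose, and 1.26 on plate 3, where 6 of 9 rose. It was -0.01 on plate 5, with 2 of 11 rising, and -0.13 on plate 1, with 0 of 11. Of all probes tested within a plate, 3.25% were higher on plate 7, 6.67% on plate 3, 8.52% on plate 5 and 0% on plate 1. Monoculture wells also carried these transcripts: the summed level of the list had medians of 439 CPM in co-culture and 424 CPM in monoculture wells on plate 1, 413 CPM in co-culture and 388 CPM in monoculture on plate 3, 709 CPM in co-culture and 738 CPM in monoculture on plate 5, and 555 CPM in co-culture and 440 CPM in monoculture on plate 7. The most abundant member was Flt4, a VEGF receptor of lymphatic and sinusoidal endothelium, which did not pass (medians of 184 CPM in co-culture and 193 CPM in monoculture, -0.03 ± 0.12, adjusted p = 0.951, higher in 17 of 50 pairs). On plate 3 Flt4 had medians of 193 CPM in co-culture and 236 CPM in monoculture, so it made up much of the sum there. Ehd3, an endocytic protein of sinusoidal endothelium, came next, with medians of 112 CPM in co-culture and 57.5 CPM in monoculture over all plates, and rose by 0.62 ± 0.13. The test of the difference between plates was past its threshold for 18 of the 27 genes.

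**Figure D2:**
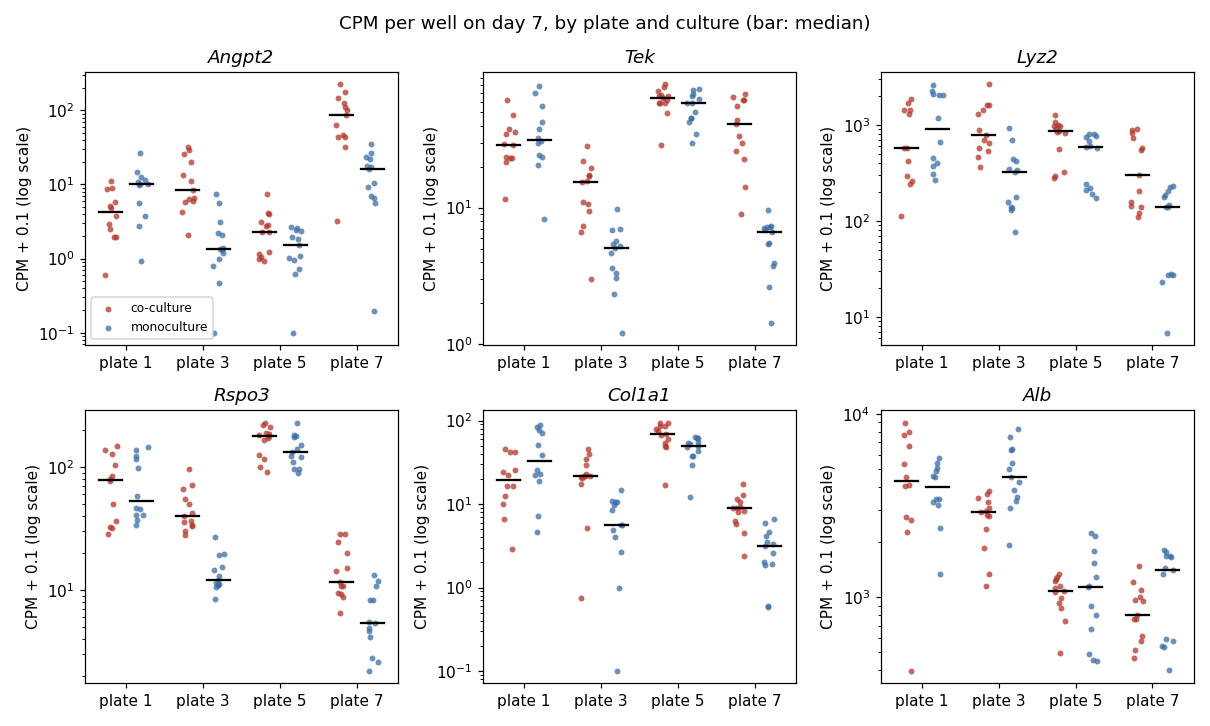
CPM plus 0.1 of 6 genes in each of the 102 wells of day 7 (log axis), by plate, with co-culture wells to the left of monoculture wells and a bar at the median. On plates 3 and 7 the co-culture medians of Angpt2, Tek, Lyz2, Rspo3 and Col1a1 lie above those of monoculture, on plate 1 those of Angpt2, Tek, Lyz2 and Col1a1 lie below, and Alb is lower in co-culture on plates 3 and 7.

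Of 25 macrophage genes tested, 7 rose in co-culture and 0 fell, with 24 log2 fold changes above 0 and a median of 0.55. Lyz2, the lysozyme of macrophages and granulocytes, ranged over 109 to 2633 CPM in co-culture (median 691) and 6.78 to 2587 CPM in monoculture (median 310). Its lowest monoculture wells lay far below any co-culture well, while the upper ends were alike, and it rose by 0.96 ± 0.24 (adjusted p = 0.00788, 39 of 50 pairs). Trem2, a lipid-sensing receptor of macrophages, rose by 0.87 ± 0.21, Spi1, the myeloid transcription factor PU.1, by 0.76 ± 0.18, and C1qc, a chain of complement C1q, by 0.67 ± 0.15. Cd163, the haptoglobin-haemoglobin scavenger receptor of tissue macrophages, had a median of 128 CPM in co-culture and 82.6 CPM in monoculture wells and rose by 0.62 ± 0.17 (adjusted p = 0.0215). Ctss, a lysosomal protease, rose by 0.58 ± 0.15, and Mrc1, the mannose receptor, by 0.59 on the log2 scale (adjusted p = 0.0293).

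Of the defining genes of macrophages, Cd163 and Lyz2 rose, while Clec4f, Marco and Csf1r did not pass the test. Clec4f, a lectin found on Kupffer cells in rodents, had a median of 4.81 CPM in co-culture and 6.18 CPM in monoculture, with a log2 fold change of -0.39 ± 0.20 (adjusted p = 0.389). Fitted within plates, it was called lower on plate 3, with medians of 9.95 CPM in co-culture and 26.1 CPM in monoculture (log2 fold change -1.27, adjusted p = 0.000527), and had -0.49 on plate 5, -0.20 on plate 7 and 0.49 on plate 1, which did not pass. Marco, a scavenger receptor of Kupffer cells, had medians of 44.3 CPM in co-culture and 41.1 CPM in monoculture (0.07 ± 0.16, adjusted p = 0.92). Csf1r, the receptor on which macrophages depend, had 0.47 ± 0.18 (adjusted p = 0.179). Vsig4, a complement receptor of Kupffer cells, had medians of 6.55 CPM in co-culture and 3.74 CPM in monoculture, with 0.68 ± 0.21 (adjusted p = 0.0549, co-culture higher in 35 of 50 pairs). Timd4 and Adgre1, further markers of resident macrophages, had 31 and 41 counts over all wells and were not tested. Within plates, the list's median was -0.36 on plate 1, 0.99 on plate 3, 0.16 on plate 5 and 1.26 on plate 7. Its summed level had medians of 1507 CPM in co-culture and 2043 CPM in monoculture on plate 1, against 1735 CPM in co-culture and 945 CPM in monoculture on plate 3. On plate 5 the sum was 2080 CPM in co-culture and 1739 CPM in monoculture, and on plate 7 it was 822 CPM in co-culture and 657 CPM in monoculture.

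Of 27 mesenchymal genes tested, 12 rose and 0 fell, with a median of 0.53. Of those 12, 5 are collagens (Col1a1, Col1a2, Col3a1, Col5a1 and Col6a3) that also count among the collagen genes given further on. Hand2, a transcription factor of stellate cells, ranged over 4.51 to 1058 CPM in co-culture (median 93.6) and 1.18 to 638 CPM in monoculture (median 35.3), and rose by 1.04 ± 0.20 (adjusted p = 0.000385, 42 of 50 pairs). Col1a1, which encodes the alpha-1 chain of type I collagen, had medians of 21.5 CPM in co-culture and 10.6 CPM in monoculture and rose by 0.85 ± 0.19 (adjusted p = 0.00216, 42 of 50 pairs). Col3a1, of type III collagen, had medians of 2731 CPM in co-culture and 1000.1 CPM in monoculture and rose by 0.76 ± 0.14. Acta2, the smooth muscle actin of activated stellate cells, rose by 0.79 ± 0.21 (adjusted p = 0.0134), though in 31 of 50 pairs only. Des, the muscle-type filament desmin that marks rat stellate cells, stayed near 0 CPM (medians 0.650 in co-culture and 0.445 in monoculture) and did not pass (0.43 ± 0.31, adjusted p = 0.603). Mesothelial genes gave a like picture on a short list: 3 of 6 rose, against 2.92% of all probes called higher. They were Upk1b, by 1.15 ± 0.23, Wt1, by 0.80 ± 0.15, and Msln, by 0.67 ± 0.15.

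Mesenchymal transcripts in the monoculture wells differed widely between plates. The summed level of the list had medians of 8998 CPM in co-culture and 8961 CPM in monoculture on plate 1, and 23836 CPM in co-culture and 22770 CPM in monoculture on plate 5. On plate 3 it was 7367 CPM in co-culture and 2540 CPM in monoculture, and on plate 7 it was 3985 CPM in co-culture and 3387 CPM in monoculture. Monoculture wells of plate 5 held a higher median than the co-culture wells of any other plate. Within plates, 17 of 19 genes tested rose on plate 3, 6 of 20 on plate 7, 4 of 23 on plate 5 and 0 of 22 on plate 1. Of all probes, 6.67% were higher on plate 3, 3.25% on plate 7, 8.52% on plate 5 and 0% on plate 1. Col3a1 had 0.03 on plate 5 and -0.05 on plate 1, against 1.84 on plate 3 and 1.24 on plate 7.

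Of 27 genes of collagens and basement membrane, 11 rose and 0 fell, with a median of 0.52, and 5 of the 11 are the collagens already counted as mesenchymal. Col6a1 and Col6a2, chains of the beaded-filament type VI collagen, rose by 0.73 ± 0.12 and 0.82 ± 0.14, Col8a1, of the short-chain type VIII collagen, by 0.88 ± 0.15, and Col4a2, of the basement membrane's type IV collagen, by 0.51 ± 0.10. Nid2, the basement membrane linker nidogen-2, rose by 0.44 ± 0.13 (adjusted p = 0.036). Among proteases of the matrix and their inhibitors, 8 of 22 rose and 0 fell, with a median of 0.41. Adamts1, a protease of proteoglycans, ranged over 36.8 to 1644 CPM in co-culture (median 374) and 13.99 to 1345 CPM in monoculture (median 159), and rose by 0.76 ± 0.16 (adjusted p = 0.000873). Adamts12 rose by 0.40 ± 0.11, and Mmp2, which degrades type IV collagen, by 0.53 ± 0.15. Of 13 targets of TGF-beta and YAP, 3 rose, among them Col1a1 and Acta2, which other lists hold too. The counts of these lists stand beside 2.92% of all probes called higher and 0.0512% lower.

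**Figure D3:**
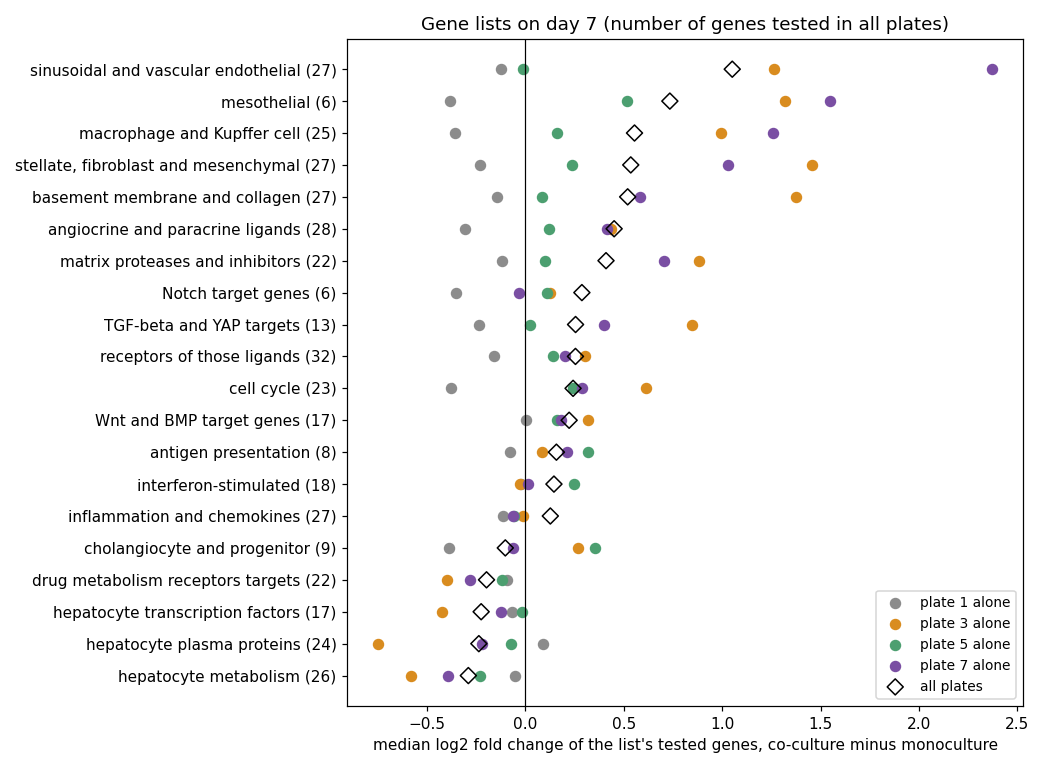
Median log2 fold change of co-culture over monoculture (horizontal axis) for each gene list with 6 or more genes tested (number in brackets), from fits within each plate (filled circles) and over all plates (open diamonds). Plates 3 and 7 lie farthest from 0 in the endothelial, macrophage and mesenchymal lists, plate 1 lies below 0 in them, and the hepatocyte lists lie at or below 0 on most plates.

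Signals that non-parenchymal cells send, and their receptors, were partly higher in co-culture. Of 28 ligands tested, 6 rose and 0 fell (median 0.45), and of 32 receptors 9 rose and 0 fell (median 0.25). Of all probes, 2.92% were called higher and 0.0512% lower. Tek, one of the 9 receptors, is also counted among the endothelial genes. Rspo3, an R-spondin that strengthens Wnt signalling and is made by endothelium of the central vein, ranged over 6.47 to 228 CPM in co-culture (median 49.6) and 2.09 to 231 CPM in monoculture (median 27.0). The ranges coincided at the top and the fitted difference was 0.80 ± 0.14 (adjusted p = 0.000132), with the co-culture well higher in 42 of 50 pairs. Bmp6, the endothelial ligand that sets hepcidin in hepatocytes, rose by 0.83 ± 0.15 (adjusted p = 0.000174, 40 of 50 pairs). Angpt2, a ligand of Tek released by activated endothelium, rose by 1.40 ± 0.29 (adjusted p = 0.00117), and its highest values were on plate 7, with medians of 87.5 CPM in co-culture and 16.0 CPM in monoculture wells. Cxcl12, a chemokine of stromal cells, rose by 0.98 ± 0.23 in the more abundant of its probes, and its receptor Cxcr4 by 0.64 ± 0.11. Csf1, the growth factor of macrophages, rose by 0.48 ± 0.13, though in 29 of 50 pairs only. Within plates Csf1 passed on plate 3 alone, with 1.35, and had 0.72 on plate 7, -0.02 on plate 1 and -0.09 on plate 5. Apln, a ligand of endothelial tips, rose by 1.45 ± 0.40 at medians of 0.616 CPM in co-culture and 0.140 CPM in monoculture.

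Among receptors, Notch4, which is largely endothelial, had the smallest adjusted p. It ranged over 2.26 to 75.3 CPM in co-culture (median 43.6) and 0.368 to 79.2 CPM in monoculture (median 15.4), and rose by 1.01 ± 0.16 (adjusted p = 2.51e-05, 40 of 50 pairs). Fitted within plates, Notch4 had 1.69 on plate 3 and 2.07 on plate 7, but 0.11 on plate 5 and 0.01 on plate 1, which did not pass. The test of the difference between plates was past its threshold for 12 of the 32 receptors. Ednrb, the endothelin B receptor, rose by 1.06 ± 0.23, Acvrl1, the endothelial receptor of BMP9, by 0.99 ± 0.23, and Igf1r, the receptor of insulin-like growth factor 1, by 0.69 ± 0.17. Of target genes of these pathways, 2 of 17 Wnt and BMP targets rose, against 2.92% of all probes called higher. They were Nkd1, by 0.77 ± 0.20, and Smad6, by 0.60 ± 0.16, both inhibitors of their own pathway. Of 6 Notch targets 0 were called, with a median of 0.29.

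Calls in the remaining lists stand beside 2.92% of all probes called higher. Inflammation and chemokine genes had a median of 0.13 and 4 of 27 rose, namely Selp (P-selectin, 1.13 ± 0.25), Cxcl12, Csf1 and Socs3 (a feedback inhibitor of cytokine signalling, 0.37 ± 0.10). Of 18 interferon-stimulated genes Isg15, a ubiquitin-like modifier, rose alone, by 0.77 ± 0.22 (adjusted p = 0.0253), with medians of 22.6 CPM in co-culture and 15.1 CPM in monoculture. Of 23 cell cycle genes Cdkn1a, the cyclin-dependent kinase inhibitor p21, was the one called over all plates, at 0.28 ± 0.08 (adjusted p = 0.036), with 22 of the 23 above 0 and a median of 0.24. Within plates, 6 of 17 cell cycle genes rose on plate 3, against 6.67% of all probes there, and 5 of 20 on plate 5, against 8.52%. None was called on plates 1 and 7, and the median on plate 1 was -0.38. None of 8 antigen presentation genes was called, and their median was 0.16. Of 9 cholangiocyte and progenitor genes Spp1, osteopontin, rose by 1.79 ± 0.28 (adjusted p = 1.41e-05), with medians of 83.2 CPM in co-culture and 23.2 CPM in monoculture. Within plates Spp1 had 2.50 on plate 3, 1.67 on plate 5 and 3.29 on plate 7. On plate 1 it had -1.11, which did not pass, with medians of 123 CPM in co-culture and 244 CPM in monoculture. Of the cholangiocyte keratins on the list, Krt19 had 0.21 ± 0.21 (adjusted p = 0.76) and Krt7 0.87 ± 0.35 (adjusted p = 0.219, higher in 31 of 50 pairs), and the list median was -0.10. Macrophages and mesenchymal cells also make osteopontin, and which cells it came from was not tested. Of 21 lymphocyte genes 1 passed the filter on low counts and was not called, and of 14 genes of neutrophils, mast cells and red cells 3 passed and none was called.

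Genes that pointed the same way on each plate were few, 29 higher and 1 lower among the called probes with at least 10 CPM in a culture. In order of fold change the 15 highest were Ednrb, Mest, Plac9, Zfpm2, Robo1, Slfn4, Mgat3, Ccdc80, Aebp1, Eps8, Rspo3, Isg15, Col6a1, Cnrip1 and Lpl, from 1.06 down to 0.69. On plate 1 the direction was often no more than a sign: the mean log2 difference was under 0.1 in 11 of the 15, the co-culture well was higher in 4 to 8 of 11 pairs, and Ccdc80 had a fitted value of -0.02. The co-culture well of lowest depth, with 10 µM ketoconazole on plate 1, held the highest co-culture value of Ednrb, Robo1, Slfn4, Eps8 and Lpl. Ednrb had 330 CPM there, against a co-culture median of 5.16 CPM, and its co-culture mean without that well was 7.31 CPM. With that well left out of the plate 1 means, 19 of the called probes were higher on each plate at 10 CPM or more, 13 of them among the 29, and 8 of the 15 had a plate 1 difference at or below 0. The 15 genes were all called in the fit without it, at 0.67 to 0.99. Slfn4, a Schlafen gene induced by interferon in myeloid cells of the mouse, was higher in the co-culture well in 45 of 50 pairs, the most among the named genes. It ranged over 6.79 to 141 CPM in co-culture (median 21.9) and 2.36 to 98.9 CPM in monoculture (median 11.5), and rose by 0.96 ± 0.15 (adjusted p = 1.41e-05). Zfpm2, a cofactor of GATA factors, rose by 0.97 ± 0.14 (adjusted p = 8.59e-06), but its fitted value within plates was 1.80 on plate 3 and 2.22 on plate 7, and 0.00 on plate 1 and 0.03 on plate 5. Ccdc80 and Aebp1, secreted proteins of the matrix, rose by 0.89 ± 0.15 and 0.86 ± 0.19. Lpl, the lipase that frees fatty acids from lipoproteins, had medians of 90.1 CPM in co-culture and 50.6 CPM in monoculture and rose by 0.69 ± 0.10 (adjusted p = 8.59e-06, 40 of 50 pairs). Robo1 is a receptor of Slit proteins (0.96 ± 0.18), Mgat3 an enzyme that branches N-glycans (0.95 ± 0.20), and Eps8 a regulator of actin (0.83 ± 0.13).

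Larger fold changes were found in genes whose mean log2 CPM on plate 1 was lower in co-culture. These were singled out after their values were seen. Smoc2, a matricellular protein, ranged over 0.885 to 94.6 CPM in co-culture (median 10.2) and 0 to 20.8 CPM in monoculture (median 2.11), and had the largest log2 fold change of the named genes, 2.05 ± 0.31 (adjusted p = 8.59e-06, 44 of 50 pairs). On plate 3 its medians were 21.7 CPM in co-culture and 0.926 CPM in monoculture. On plate 1 they were 3.87 CPM in co-culture and 5.44 CPM in monoculture. Slit3, a ligand of Robo receptors, rose by 1.14 ± 0.21, Rgcc, a regulator of the cell cycle, by 1.12 ± 0.25, and Hoxb2, a homeobox factor, by 1.08 ± 0.21. Adam23 and Adam33, membrane proteins of the ADAM family, rose by 1.10 ± 0.22 and 1.11 ± 0.32.

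**Figure D4:**
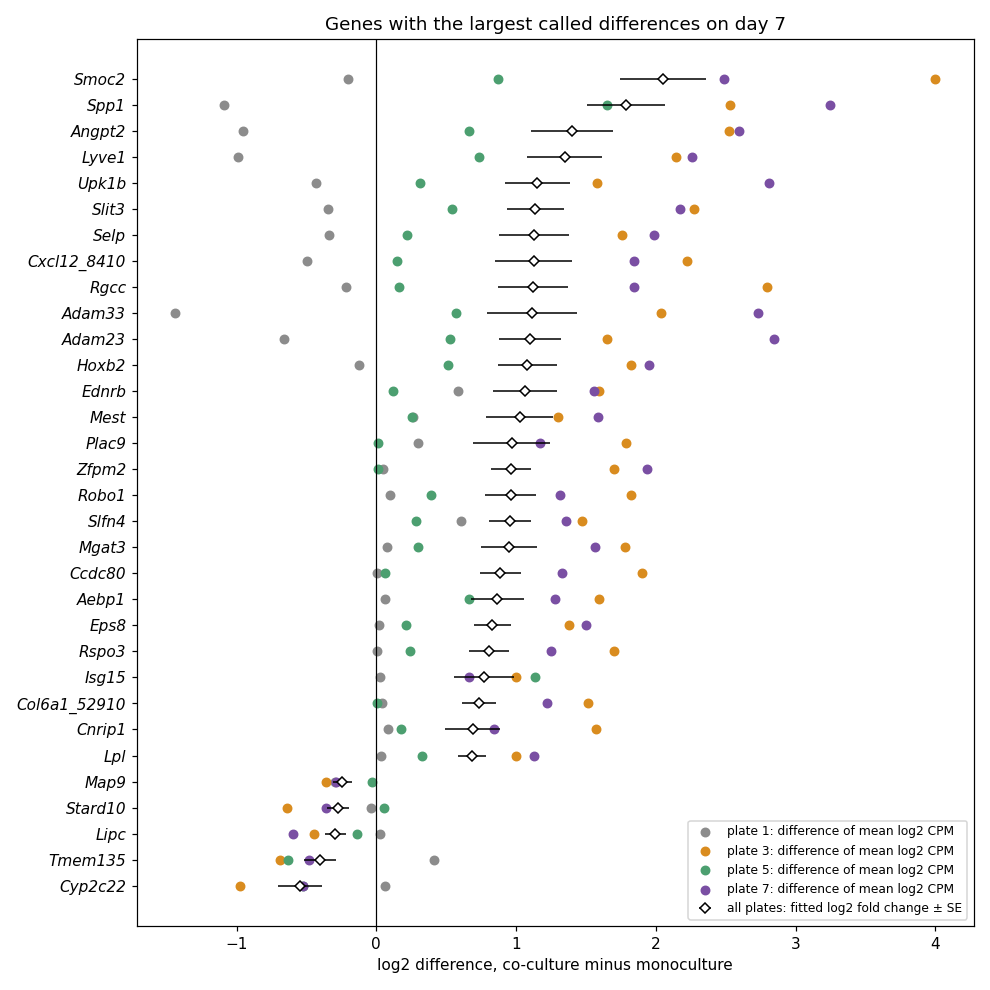
Log2 difference of co-culture over monoculture (horizontal axis) for the called genes with the largest changes, as the difference of mean log2 CPM on each plate (filled circles) and as the fitted value over all plates with its SE (open diamonds). Plates 3 and 7 lie to the right of plates 1 and 5 for nearly all of the higher genes, and in the upper 12 genes plate 1 lies below 0.

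The 4 lists of hepatocyte genes had log2 fold changes mostly below 0, and none of their members was called over all plates. Of 24 genes of plasma proteins 0 rose and 0 fell, 2 lay above 0, and the median was -0.24 against -0.02 over all probes. Of 26 metabolic genes 0 passed, 2 lay above 0 and the median was -0.29. Of 17 transcription factors 0 passed, with a median of -0.23, and of 22 genes of drug metabolism 0 passed, with a median of -0.20. Alb, albumin, ranged over 395 to 8992 CPM in co-culture (median 1282) and 399 to 8339 CPM in monoculture (median 1922), so the cultures coincided in range, and the log2 fold change was -0.27 ± 0.13 (adjusted p = 0.347). Hnf4a, the master transcription factor of hepatocytes, had medians of 251 CPM in co-culture and 254 CPM in monoculture (-0.12 ± 0.18, adjusted p = 0.862). Cyp3a2, a cytochrome P450 of male rat liver, was near 0 in both cultures, with medians of 0.336 CPM in co-culture and 0.516 CPM in monoculture (-0.17 ± 0.36, adjusted p = 0.909). Fitted within plate 3, 14 of 23 plasma protein genes, 9 of 21 metabolic genes, 5 of 17 transcription factors and 5 of 16 genes of drug metabolism fell, against 2.68% of all probes lower on that plate, Alb by 0.82 on the log2 scale (adjusted p = 0.00205), while 1 metabolic gene and 1 of drug metabolism rose. Of all probes, 6.67% were higher on plate 3. On plate 5, 1 of 14 transcription factors fell, against 2.53% of all probes lower. On the same plate 2 of 14 transcription factors, 1 of 19 metabolic genes and 1 of 13 genes of drug metabolism rose, against 8.52% of all probes higher. Hnf4a was among those that rose there, with medians of 260 CPM in co-culture and 190 CPM in monoculture (0.63 ± 0.14, adjusted p = 0.00793, 10 of 13 pairs), and it had -0.42 on plate 3 and -0.71 on plate 1, which did not pass. On plate 7, 1 of 19 metabolic genes fell, and of 19 genes of drug metabolism 1 rose and 1 fell. Of all probes on that plate 3.25% were higher and 0.241% lower. On plate 3 the plasma protein list had a summed level of 43466 CPM in co-culture and 53515 CPM in monoculture (medians), while on plate 1 it was 51876 CPM in co-culture and 50648 CPM in monoculture. CPM are shares of the TMM-scaled library. Whether a rise of other transcripts still lowers hepatocyte values after that scaling was not tested.

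The 7 probes that were lower in co-culture included 6 genes of at least 10 CPM, of which Map9, a microtubule-associated protein, alone pointed down on every plate (-0.24 ± 0.07, adjusted p = 0.028, co-culture higher in 18 of 50 pairs). Of the other 5, the 4 given here were singled out after their values were seen. Cyp2c22, a cytochrome P450 of rat liver, ranged over 37.0 to 1515 CPM in co-culture (median 242) and 35.7 to 2342 CPM in monoculture (median 339), with a log2 fold change of -0.54 ± 0.16 (adjusted p = 0.0304, co-culture higher in 13 of 50 pairs). Tmem135 fell by 0.41 on the log2 scale, and Stard10, a lipid-transfer protein, by 0.28. Lipc, the hepatic lipase, had medians of 89.0 CPM in co-culture and 109.8 CPM in monoculture and fell by 0.29 (adjusted p = 0.0121), with the co-culture well higher in 8 of 50 pairs. On plate 1 these 4 lay between -0.01 and 0.42.

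The plates differed in what co-culture added, as a test as well as in the counts. The culture effect differed between plates for 789 probes, 5.78% of those tested, and for 292 of the 399 higher probes. Fitted plate by plate, plate 3 had 690 higher (6.67%) and 277 lower probes (2.68%), plate 5 had 881 higher (8.52%) and 262 lower (2.53%), and plate 7 had 365 higher (3.25%) and 27 lower (0.241%). Plate 1 had 0 higher (0%) and 0 lower (0%) by edgeR's quasi-likelihood test, and 829 of its 10450 probes had an unadjusted p under 0.05. Of the calls within a plate, 304 on plate 3, 246 on plate 7 and 87 on plate 5 were shared with those over all plates. Among the genes with the smallest p in the test of the difference, Col8a1 had 2.00 on plate 3, 1.65 on plate 7, -0.01 on plate 5 and 0.03 on plate 1 (adjusted p of the difference 3.12e-10). Adamts1 had 1.94, 1.47, 0.14 and -0.46 on plates 3, 7, 5 and 1. Median probes detected per well were 12436 in co-culture and 14240.5 in monoculture on plate 1, and between 13281 and 13816 in all groups of the other plates. With the number of probes detected as a covariate 741 probes were called, 586 of them higher. Lyve1 in phenobarbital wells of plate 1 did not follow the named doses as elsewhere. On plates 3, 5 and 7 it had 0 to 1.49 CPM at 10 mM. Co-culture wells of those plates had 11.3 to 32.0 CPM at 1 mM. On plate 1 it had 0.761 CPM in co-culture at 1 mM, 0.743 CPM in monoculture at 10 mM and 3.49 CPM in co-culture at 10 mM. Phenobarbital was not alone in this. With 1 µM ketoconazole in co-culture, Lyve1 had 0 CPM on plate 1 and 25.8 to 40.2 CPM on plates 3, 5 and 7. Lyz2 on plate 1 had 1171 to 2587 CPM in the gemfibrozil and GW7647 wells of both cultures. In the vehicle, ketoconazole and phenobarbital wells of plate 1 it had 112 to 656 CPM. Whether the library names of plate 1 match its wells was not tested.

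No difference between compounds was detected in what co-culture added. The test of culture by compound called 0 probes (0%) by edgeR's quasi-likelihood test, with 70 of 13660 at an unadjusted p under 0.05. That is a smaller share than the 0.05 which a test gives where nothing differs. Its fit held no term for culture by plate, and 0 calls in it do not show that the effect was alike over compounds. Within a compound no probe passed either, with 4 to 12 wells a culture. The endothelial list had median log2 fold changes of 1.38 in vehicle, 0.91 with gemfibrozil, 0.52 with GW7647, 1.13 with ketoconazole and 1.21 with phenobarbital wells. The ketoconazole and phenobarbital values rest on library names, since all 12 monoculture libraries named for phenobarbital carry ketoconazole as compound label. Slfn4 had 1.01 ± 0.53 in vehicle, 0.94 ± 0.31 with gemfibrozil, 0.60 ± 0.31 with GW7647, 1.24 ± 0.32 with ketoconazole and 1.05 ± 0.31 with phenobarbital, with an adjusted p of the difference above 0.05. In vehicle wells alone, 4 a culture, 0 probes were called by edgeR's quasi-likelihood test and 559 had an unadjusted p under 0.05.

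The culture difference of day 7 was set beside those of days 1 and 3 in a fit of all days, which tested 14763 probes on 104 wells of day 1, 104 of day 3 and the 102 of day 7. In that fit 228 probes differed by culture on day 1 (1.54%), 281 on day 3 (1.9%) and 237 on day 7. The effect of day 7 differed from that of day 3 for 22 probes (0.149%), 18 higher and 4 lower, and from that of day 1 for 50 probes (0.339%), 25 higher and 25 lower. The counts depended on single plates: leaving out a plate in turn gave 4 to 480 for day 3 and 0 to 118 for day 1, with the lowest without plate 7 and the highest without plate 1. Median effects of the endothelial list were 0.81 on day 1, 0.85 on day 3 and 1.07 on day 7, and those of the mesenchymal list 0.19, 0.40 and 0.56. Those of the macrophage list were 0.08, 0.65 and 0.57. Differences between days were not tested over lists. The plates were not alike between days: day 3 also had 5 co-culture and 4 monoculture wells on a plate numbered 9, which the other days lack, and on plate 3 it had 8 co-culture and 9 monoculture wells, with no phenobarbital among them. With plates 1, 3, 5 and 7 only, an alternative chosen after seeing the data, day 7 differed from day 3 for 20 probes, 18 of them among the 22, and from day 1 for 48, all among the 50. The wells of plate 3 stayed unequal between days in that fit.

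The effect on single genes differed between days in either direction. Lyz2 had an effect of 2.20 ± 0.23 on day 1, 2.27 ± 0.22 on day 3 and 0.98 ± 0.21 on day 7, smaller on day 7 than on day 1 (adjusted p = 0.0355) and day 3 (adjusted p = 0.0177). Lcn2, the acute-phase protein lipocalin-2, had 1.45 ± 0.16 on day 1, 0.68 ± 0.16 on day 3 and 0.03 ± 0.15 on day 7 (adjusted p = 8.39e-06 between days 7 and 1). Bicc1, an RNA-binding protein, and Tesc, a calcium-binding protein, had called positive effects on day 1, with 0.66 ± 0.11 and 0.97 ± 0.19, against -0.18 ± 0.11 and -0.24 ± 0.17 on day 7. Eps8 had -0.23 ± 0.13 on day 1, 0.06 ± 0.13 on day 3 and 0.85 ± 0.13 on day 7. Notch4 had 0.70 ± 0.16 on day 1, -0.18 ± 0.15 on day 3 and 1.03 ± 0.16 on day 7, and Gas7, a cytoskeletal protein, had 0.24 ± 0.15, -0.38 ± 0.16 and 0.83 ± 0.15. Gpt, alanine aminotransferase, and Pfkp, the platelet-type phosphofructokinase, were lower in co-culture on day 3, with -0.74 ± 0.11 and -0.48 ± 0.09, and lay at 0.11 ± 0.11 and 0.18 ± 0.09 on day 7.

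**Figure D5:**
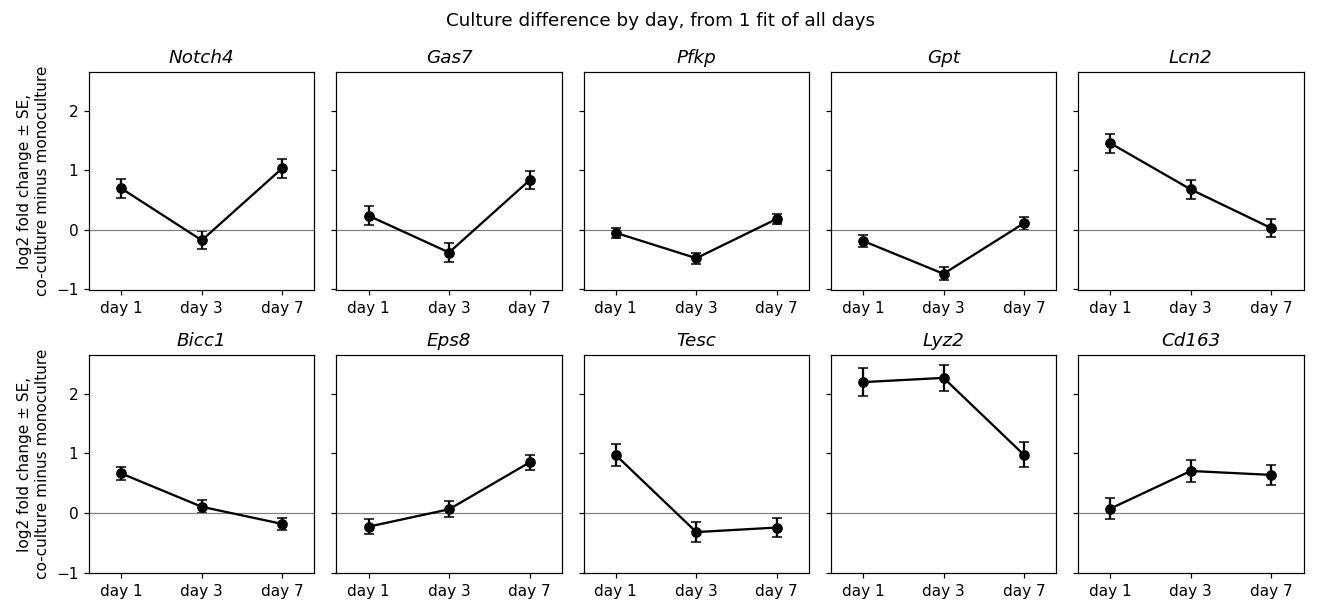
Log2 fold change of co-culture over monoculture with its SE (vertical axis) on days 1, 3 and 7 after plating (horizontal axis) for 10 genes, from a fit of all days. Lcn2, Bicc1, Tesc and Lyz2 have a lower effect on day 7 than on day 1, Eps8 a higher one, and Notch4, Gas7, Pfkp and Gpt have their lowest effect on day 3.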

How the data were processed

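TempO-Seq libraries of rat hepatocyte cultures were analysed from the count table that the authors deposited. Its values are whole-number counts per probe and well, without normalization, made by the assay's supplier per the labels' protocols. Bowtie is named per the submitters' processing notes, while the sources used here do not give its version, its settings or the build. Groups follow the library names: all 12 monoculture libraries of day 7 named for phenobarbital carry ketoconazole as compound label and were taken as phenobarbital, and its doses were read as mM, as the protocol has them, where the dose label has µM. No library of day 7 is named for co-culture with 1000 µM gemfibrozil on plate 1.

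The fits used edgeR 4.0.16 (R 4.3.3) on libraries of day 7 with at least 500000 counts. Probes passed filterByExpr with a minimum count of 10 over the 26 groups of culture and compound-dose. Libraries were scaled by TMM, and the two-sided quasi-likelihood test (glmQLFit, glmQLFTest) held culture, compound-dose and plate, with Benjamini-Hochberg adjustment over all probes. A standard error is the log2 fold change divided by the root of F. Differences between plates, compounds and days were tested as interactions, and the culture effect was also fitted within each plate. Log2 CPM used a prior count of 2. Of a gene with several probes, lists used the most abundant. The script was tested on simulated data.

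Plate numbers in the names were taken to pair the wells. After removal of the mean of each culture and compound-dose, log2 CPM were averaged per plate and culture. Such averages of both cultures correlated at 0.448, 0.691, 0.862 and 0.889 on plates 1, 3, 5 and 7. With the other plates the mean correlation was -0.0838 to -0.334. Removing means over plates by itself pushes these values below 0. No 2 libraries held identical values, and the highest correlation of log2 CPM between wells was 0.99. Named genes were the 15 highest and 15 lowest called probes with the same direction on each plate and at least 10 CPM in a culture (1 was lower), up to 6 such members of each list, defining markers, and the 4 smallest p-values of each difference. Further genes without the condition on plates (47 of 90) were added after their values were seen. Some results on single genes are not reported here. The members and the 22 gene lists were chosen with earlier results of these data known. Alternatives were RLE scaling, DESeq2 1.42.0, no filter, no plate block, matched wells as block, each plate left out, other depth minimums, no top doses, vehicle wells alone and summed counts.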

Additional observations from a re-analysis of the deposited data

Results flagged for a closer look

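The culture effect differed between plates for 789 probes, in the test of culture by plate. Among the 4 genes of smallest adjusted p were Zfpm2 (2.59e-10), Col8a1 (3.12e-10) and Adamts1 (3.53e-10), each with its highest fitted values on plates 3 and 7. In the fit of all days, the effect on day 7 differed from that on day 3 for 22 probes and from that on day 1 for 50. Between days 7 and 3 the adjusted p was 0.000372 for Notch4, for Gas7 and for Gpt, and 0.00143 for Pfkp, all with a higher effect on day 7. Between days 7 and 1 it was 6.19e-05 for Eps8, with a higher effect on day 7, and 8.39e-06 for Lcn2, 0.000292 for Bicc1 and 0.00832 for Tesc, with a lower effect on day 7.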

How the results depend on the processing

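The 406 called probes (399 higher, 7 lower) became 444 with RLE scaling and 425 without a filter on low counts (11 lower), of which 402 and 369 were shared with the first count, and 406 with a minimum of 1000000 counts. DESeq2 called 642 (614 higher, 28 lower), 398 of them shared. Leaving out a plate gave 2 to 2015 calls, 2 to 1203 higher and 0 to 812 lower. Plate is paired by its number, and the replicate block matters: without it 20 were called, 20 higher and 0 lower, and the differences of day 7 from days 3 and 1 had 4 and 2 calls. With matched wells as replicate block 592 were called, 110 lower. Every well whatever its depth gave 2 lower, and leaving out the top doses 19 lower. Vehicle wells alone and counts summed per plate and culture gave 0 calls, 0 higher and 0 lower each, with 559 and 820 at an unadjusted p under 0.05. As alternatives chosen after seeing the data, the number of probes detected as covariate gave 741 calls, 155 lower, and leaving out the co-culture well with 10 µM ketoconazole on plate 1 gave 433. The cause of these shifts was not tested. The differences of day 7 from days 3 and 1 ranged over 4 to 480 and 0 to 118 with a plate left out, and were not run without the filter. Among named genes, signs turned in genes that were not called: Gpt was -0.047 without the top doses and -0.27 in vehicle wells, and Lcn2 was -0.0027 in summed counts. With a plate left out, log2 fold changes of Marco ranged over -0.034 to 0.22, of Lcn2 over -0.066 to 0.12 and of Hnf4a over -0.32 to 0.042. Of 90 named genes, 76 were called over all plates, and all 76 lost their call in summed counts. Of these 76, 75 lost it without plate 3, 75 without plate 7, 16 without plate 5 and 0 without plate 1. Genes with few counts per well, such as Stab2, could not be compared at this depth.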
